A study of Homo sapiens with 18 samples.

Results

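The 9 genes described here, RRM1, RRM2, RRM2B, TYMS, DUT, DTYMK, TK1, DCK and SAMHD1, make, salvage or break down the deoxynucleotides that DNA polymerases use. They were taken by symbol from a table of 26668 gene symbols, and all 9 were present and passed the filter of a mean of at least 1 FPKM in every line. The table held RNA-seq of PANC-1, MIA PaCa-2 and PaTu 8988T, 3 established human lines from pancreatic carcinoma, each with 3 shControl and 3 shOFD1 libraries, 18 in all. The shOFD1 cells carry a doxycycline-induced hairpin against OFD1, a centrosome and basal body protein, and were collected 72 h after doxycycline. The shControl libraries are labelled as wild-type genotype with no treatment, whereas the study's methods describe the same Tet-on-shOFD1 cells given DMSO, so which cells served as controls was not settled here. The series text names days 0 and 3, so time in culture, doxycycline and the hairpin itself cannot be told apart from the loss of OFD1. Replicates 2 and 3 of both PaTu 8988T groups carry other line names (PaTu 8989T and PaTu 8990T) outside their titles, and the titles were followed. Nothing in the labels says that the libraries came from separate cultures, so p-values measure the spread between these libraries, which may be technical.

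Ribonucleotide reductase turns ribonucleotides into deoxyribonucleotides and is built from the large subunit RRM1 and a small subunit, either RRM2, which is made in S phase, or RRM2B, which p53 induces and which serves cells outside S phase. Thymidylate has a branch of its own: DUT clears dUTP and yields dUMP, TYMS methylates dUMP to dTMP, and DTYMK phosphorylates dTMP. TK1 and DCK salvage deoxynucleosides from outside the cell, and SAMHD1 hydrolyses dNTPs back to deoxynucleosides.

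Each library held 32486479 to 39797537 reads counted on genes, recovered from the steps of the deposited values, and the members had 434 to 18489 reads per library. The lowest, TK1 in a PANC-1 shOFD1 library, had a 95% Poisson interval of 394 to 477 reads, which covers counting error only. OFD1 (chrX:13734745-13769353) was lower in the shOFD1 libraries of all 3 lines. In PANC-1 it measured 5.50, 5.12 and 5.67 FPKM in the controls and 2.80, 2.27 and 2.58 FPKM after knockdown. MIA PaCa-2 measured 3.09, 2.27 and 3.2 FPKM against 1.76, 1.74 and 1.97 FPKM, and in PaTu 8988T 2.14, 1.93 and 2.12 FPKM against 0.986, 0.894 and 0.854 FPKM. FPKM are reads divided by gene length and by the total reads of the library. The 6 epithelial markers (KRT8, KRT18, KRT7, KRT19, EPCAM and CDH1) all reached 1 FPKM in PANC-1, but KRT7, EPCAM and CDH1 did not in MIA PaCa-2, nor KRT7, KRT19 and CDH1 in PaTu 8988T. Of 6 markers of other cell types, 1 to 2 reached 1 FPKM in each line, among them PTPRC in MIA PaCa-2 only. DCN, VWF and PECAM1 did not in any line, and DCN was at 0 in a group of each line. The summed level of these 6, nearly all of it CD68 and, in PANC-1, COL1A1, was 57.3 to 64.3 FPKM in the PANC-1 controls and 39.0 to 41.7 FPKM after knockdown. It was 49.4 to 67.5 and 73.4 to 77.2 FPKM in MIA PaCa-2, and 13.7 to 14 and 9.85 to 11.7 FPKM in PaTu 8988T. Its part in the members' changes was not tested.

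Replicate 2 of the MIA PaCa-2 controls stood apart from the other libraries. Over the 10758 genes tested in that line, its deviation from the mean of the other 2 controls had an SD of 0.516 on the log2 scale, against 0.281 for each other control library measured the same way. The deviation followed the GC content of the transcript (Pearson r = 0.882 over 9902 genes, a description across genes of 1 library), and in the 2 other controls r was -0.828 and -0.836, whose comparison mean includes replicate 2. Among the members replicate 2 deviated from the other controls by 0.90 for TK1, whose transcript has 62.8% GC, and by 0.55 for DTYMK (59.7% GC). It deviated by -0.95 for DCK (38.8% GC) and by -0.88 for RRM2B (36.4% GC), with the other members between -0.36 and -0.12. Changes of the members in MIA PaCa-2 are therefore also given without this library, an alternative listed with the design, and those of other genes in part. In PaTu 8988T the same correlation was -0.62 and 0.62 for shOFD1 replicates 1 and 2, with SDs of 0.157 and 0.177, and in the other libraries it was at most 0.38 in size.

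**Figure D1:**
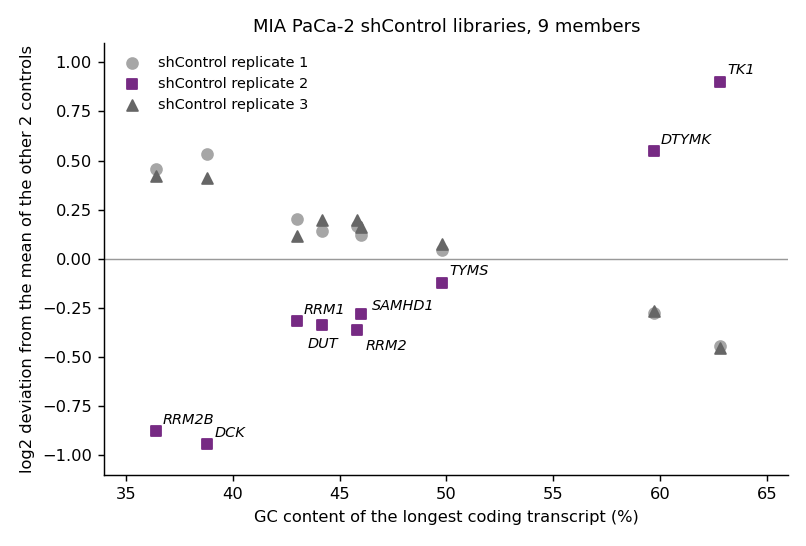
Deviation of each MIA PaCa-2 shControl library from the mean of the other 2 control libraries (log2 of FPKM plus 0.1, vertical axis) against the GC content of the gene's longest coding transcript (percent, horizontal axis) for the 9 genes. Replicate 2 runs from -0.95 for DCK to 0.90 for TK1, and the other control libraries run the opposite way.

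The deoxynucleotide supply genes were mostly lower after OFD1 knockdown in PANC-1 and MIA PaCa-2 and mostly slightly higher in PaTu 8988T. A gene was called at an adjusted p below 0.05 by limma's test. In PANC-1, 7 of the 9 genes were called lower and 1 higher, with 32.2% and 40.1% of the 10902 genes tested called lower and higher. In MIA PaCa-2, 6 were called lower and 0 higher, where 21.7% and 18.7% of all genes were called. In PaTu 8988T, 1 was called lower and 6 higher, against 18.5% and 20.9% of the 10698 genes tested. The median log2 fold change of the 9 genes was -0.91 in PANC-1, -0.40 in MIA PaCa-2 and 0.18 in PaTu 8988T, and that of all genes tested was 0.06, -0.03 and 0.03. A further limit of a fold below 0.5, the one the study used, was passed by RRM2, TYMS and TK1 in PANC-1 and by RRM2 in MIA PaCa-2, where 4.84% and 3.68% of all genes passed it. These are bulk RNA values, so fewer cells in the phase that expresses a gene and less RNA per cell cannot be told apart.

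**Figure D2:**
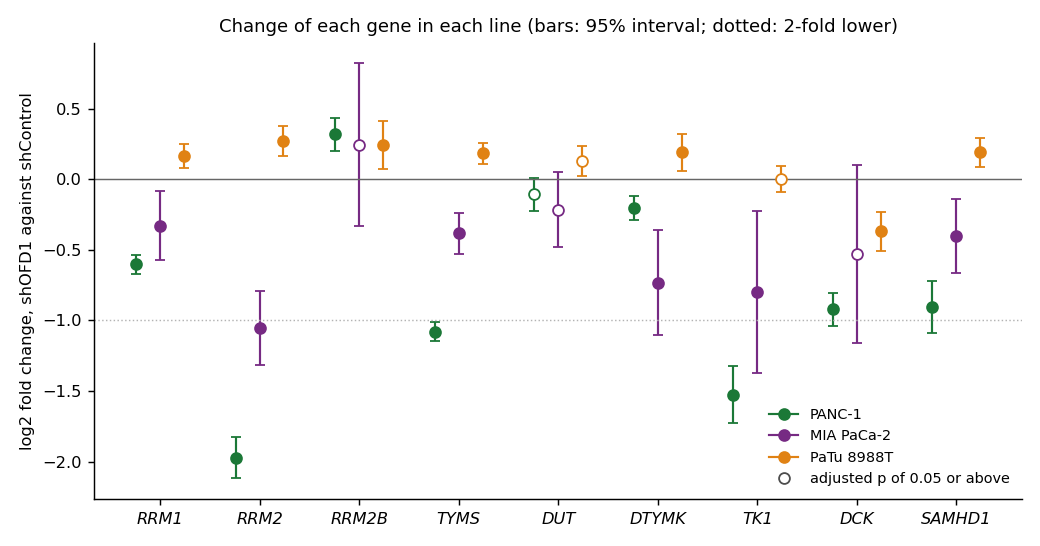
Log2 fold change of shOFD1 against shControl (vertical axis, log2 of FPKM plus 0.1) for each of the 9 genes in the 3 lines, with 95% intervals from limma and open points where the adjusted p was 0.05 or above. RRM2 in PANC-1 is the lowest point at -1.97, the PaTu 8988T points lie between -0.37 and 0.27, and RRM2B is the only gene whose 3 points all lie above 0.

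The count in MIA PaCa-2 depended on single libraries. Without control replicate 2, DUT and DCK joined the genes called lower, giving 8 of 9, while 40% of all genes were then called lower. Without any 1 of the 3 shOFD1 libraries only RRM2, TYMS and DTYMK kept an adjusted p below 0.05, and 12.2% to 12.5% of all genes were called lower.

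The stretches of 150 bases just before the annotated starts of RRM2, TYMS, TK1 and DUT are shown because the first 3 had the largest falls in PANC-1, while DUT changed little. The choice was made with these results known. They come from RefSeq (GRCh38.p14) and read 5′ to 3′ along the gene. Capitals mark matches to an E2F site, to the CCAAT box (ATTGG on the other strand) and to the cell cycle element CHR.
RRM2, chr2:10122589-10122738, plus strand: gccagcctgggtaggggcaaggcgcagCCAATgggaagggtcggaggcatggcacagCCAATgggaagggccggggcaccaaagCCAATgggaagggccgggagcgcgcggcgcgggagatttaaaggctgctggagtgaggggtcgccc
TYMS, chr18:657503-657652, plus strand: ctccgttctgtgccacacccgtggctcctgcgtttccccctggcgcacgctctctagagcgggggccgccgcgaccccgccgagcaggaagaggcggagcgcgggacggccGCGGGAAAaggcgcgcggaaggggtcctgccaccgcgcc
TK1, chr17:78187053-78187202, minus strand: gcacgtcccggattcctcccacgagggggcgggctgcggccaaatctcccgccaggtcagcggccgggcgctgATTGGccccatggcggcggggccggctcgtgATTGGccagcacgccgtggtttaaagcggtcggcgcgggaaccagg
DUT, chr15:48332047-48332196, plus strand: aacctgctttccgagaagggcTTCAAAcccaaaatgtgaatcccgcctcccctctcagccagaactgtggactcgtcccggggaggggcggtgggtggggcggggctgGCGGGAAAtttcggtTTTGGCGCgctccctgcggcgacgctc

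The CCAAT box is bound by NF-Y and is common in promoters of S-phase and mitotic genes, and E2F sites are bound by E2F factors that activate or, with pocket proteins, repress them. RRM2 had 3 CCAAT boxes in a row, at -123, -93 and -66 from the start, and TK1 had 2 inverted ones, at -77 and -46. TYMS had an inverted E2F match at -39 to -32. DUT, whose RNA changed least in PANC-1, had 2 E2F matches, at -42 to -35 and -27 to -20, in the last of its 4 start windows. Windows of 250 bases before to 50 after a start were held for 8 of the 9 genes (13 windows, all but RRM2B). E2F was searched on both strands as TTTCCCGC or TTTCGCGC or TTTGCCGC or TTTGGCGC and matched windows of 3 of the 8 genes (TYMS, DUT and DCK), against 3.31% of 35116 promoter windows. The letters CCAAT matched 5 of the 8 (RRM1, RRM2, TK1, DTYMK and SAMHD1), against 34.6% of windows. The CHR, searched as TTTGAA, matched RRM1 and DUT, against 15.2% of windows. The GC box, searched as GGGCGG and not capitalised above, matched 6 of the 8 genes, against 45.0% of windows. No match shown overlapped a match to another motif. Genes with several windows have more chances of a match than single windows, and the matches are a description of letters, not of binding.

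RRM1, the large subunit (chr11:4094707-4138876, plus strand), fell in PANC-1 from 64.6, 64.9 and 65.6 FPKM to 44.0, 41.7 and 42.8 FPKM. The groups were far apart, and the log2 fold change was -0.60 ± 0.03 (SE), with an adjusted p of 5.14e-08. In MIA PaCa-2 the controls measured 88.0, 69.1 and 84.5 FPKM and the shOFD1 libraries 62.5, 65.2 and 63.5 FPKM. All shOFD1 libraries lay below all controls, but control replicate 2 came close to them, and the log2 fold change of -0.33 had an adjusted p of 0.0412. Without that library the change was -0.44, with an adjusted p of 2.74e-06, whereas without any other MIA PaCa-2 library the adjusted p was between 0.109 and 0.134. In PaTu 8988T, RRM1 rose from 66.4, 66.3 and 62.8 FPKM to 75.0, 71.5 and 72.6 FPKM, a log2 fold change of 0.16 with an adjusted p of 0.00826.

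RRM2, the S-phase small subunit (chr2:10120698-10131419, plus strand), had the largest fall of the 9 genes in PANC-1 and in MIA PaCa-2. In PANC-1 it measured 39.2, 34.7 and 35.5 FPKM in the controls and 9.95, 8.47 and 9.32 FPKM after knockdown. The mean after knockdown was 25.3% of the control mean, and the log2 fold change was -1.97 ± 0.07 (SE), with an adjusted p of 3.43e-09. Its MIA PaCa-2 libraries measured 136, 106 and 138 FPKM in the controls and 62.1, 59.3 and 60.0 FPKM after knockdown. The log2 fold change there was -1.05 ± 0.11 (SE), with an adjusted p of 0.000810, and without control replicate 2 it was -1.18. In PaTu 8988T the direction was the opposite: 47.4, 43.1 and 43.2 FPKM in the controls and 54.9, 52.3 and 54.0 FPKM after knockdown, a log2 fold change of 0.27 with an adjusted p of 0.00166. In the annotation (GENCODE release 29), 20.2% of the exon bases of RRM2 are shared with a gene model on the same strand that the table does not list.

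RRM2B, the small subunit that p53 induces, was called higher in PANC-1, where RRM2 fell most, but not in MIA PaCa-2. It was also called higher in PaTu 8988T, where RRM2 rose. In PANC-1 it went from 14.4, 15.4 and 16.1 FPKM to 19.6, 18.1 and 19.5 FPKM, and every shOFD1 library was above every control. The log2 fold change was 0.32 ± 0.05 (SE), with an adjusted p of 0.000354, and between 0.27 and 0.35 whichever library was left out. MIA PaCa-2 had 8.32, 4.44 and 8.19 FPKM in the controls and 8.33, 7.71 and 7.91 FPKM after knockdown. The low control was replicate 2, and the log2 fold change of 0.24 (adjusted p of 0.452) turned to -0.05 (adjusted p of 0.40) without it. PaTu 8988T had 11, 10.3 and 9.89 FPKM in the controls and 13.4, 10.9 and 12.7 FPKM after knockdown. These groups overlapped, and the log2 fold change of 0.24 had an adjusted p of 0.0311. That call was lost without control replicate 2 or 3 or shOFD1 replicate 1 or 3 (adjusted p of 0.0841 to 0.103), and without a filter on low values (adjusted p of 0.0938).

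The balance between the small subunits changed most in PANC-1. FPKM is scaled by gene length, so RRM2 and RRM2B can be set side by side within a library, though only roughly. RRM2 shares 20.2% of its exon bases with another gene model, and transcript GC is 45.8% for RRM2 and 36.4% for RRM2B. The part of either in the ratio was not tested. In PANC-1 there were 2.73, 2.25 and 2.21 FPKM of RRM2 per FPKM of RRM2B in the controls and 0.508, 0.467 and 0.478 after knockdown. RRM2 thus went from 68.8% to 73.2% of their summed FPKM in the controls to 31.8% to 33.7%, and RRM2B became the higher of the pair by FPKM. In MIA PaCa-2 the ratio went from 16.3, 23.9 and 16.8 to 7.46, 7.70 and 7.58, so RRM2 stayed well above RRM2B, with 88.2% to 88.5% of the sum after knockdown. In PaTu 8988T it was 4.32, 4.17 and 4.37 in the controls and 4.09, 4.78 and 4.24 after knockdown, and the groups overlapped. The log2 of RRM2B over RRM2 differed by 2.30 in PANC-1 and 1.30 in MIA PaCa-2, each with the smallest p that an exact two-sided permutation test of 3 against 3 can give (0.1), and by -0.03 in PaTu 8988T (exact permutation p of 0.9). In MIA PaCa-2 the difference was 1.13 without control replicate 2.

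**Figure D3:**
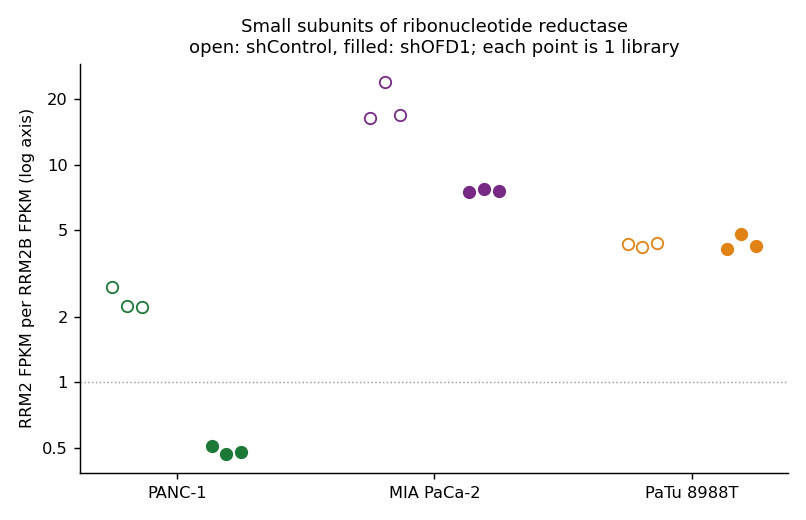
RRM2 FPKM per RRM2B FPKM in each of the 18 libraries (vertical log axis), by line, with open points for shControl and filled points for shOFD1; the dotted line marks equal levels. The 3 PANC-1 shOFD1 libraries lie near 0.5, below the line, while all other libraries lie above it, with MIA PaCa-2 shOFD1 near 7.6 and PaTu 8988T between 4.09 and 4.78 after knockdown.

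TYMS, thymidylate synthase (chr18:657604-673578, plus strand), had the highest mean FPKM of the members in the controls of every line. In PANC-1 it went from 79.3, 76.7 and 81.4 FPKM to 37.0, 37.4 and 37.8 FPKM, a log2 fold change of -1.08 ± 0.03 (SE) with an adjusted p of 1.31e-09. MIA PaCa-2 went from 195, 181 and 198 FPKM to 146, 147 and 147 FPKM, a log2 fold change of -0.38 with an adjusted p of 0.00369, and -0.42 without control replicate 2. The groups were apart in both lines. In PaTu 8988T it rose from 209, 210 and 215 FPKM to 235, 240 and 246 FPKM, a log2 fold change of 0.18 with an adjusted p of 0.00236. On the opposite strand, exons of ENOSF1 cover 39.1% and those of TYMSOS 7.41% of the exon bases of TYMS, and how the counting treated strand is not given in the sources used here. ENOSF1 measured 6.81 to 8.33 FPKM in PANC-1, 5.14 to 7.09 FPKM in MIA PaCa-2 and 17.8 to 23.1 FPKM in PaTu 8988T, far below TYMS in each line.

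DUT, the dUTPase (chr15:48331011-48343373, plus strand), was the member with the smallest change in PANC-1, and with all libraries it was not called in any line. In PANC-1 the controls measured 27.4, 26.6 and 27.6 FPKM and the shOFD1 libraries 27.3, 25 and 23.5 FPKM. These overlapped, and the log2 fold change of -0.11 had a 95% interval of -0.23 to 0.01 and an adjusted p of 0.0905. The interval leaves room for a small fall but not for one of the size of RRM2 or TYMS. Without shOFD1 replicate 1 the change was -0.17 and passed, with an adjusted p of 0.00882. In MIA PaCa-2 the controls measured 29.9, 24 and 30.7 FPKM and the shOFD1 libraries 25.1, 23.9 and 23.3 FPKM, a log2 fold change of -0.22 with an adjusted p of 0.170. Without control replicate 2, the low one, it was -0.33 with an adjusted p of 9.85e-05. PaTu 8988T libraries measured 34.3, 32.3 and 32.5 FPKM in the controls and 34.1, 37.7 and 36.6 FPKM after knockdown, a log2 fold change of 0.13 with an adjusted p of 0.0607. Without shOFD1 replicate 1 of that line it was 0.17, with an adjusted p of 0.0161. Exons of an antisense gene model that the table does not list cover 14.5% of the exon bases of DUT.

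DTYMK, thymidylate kinase (chr2:241675742-241686991, minus strand), had a small fall in PANC-1, from 40.9, 42.7 and 41.5 FPKM to 36.4, 34.7 and 37.7 FPKM. The log2 fold change was -0.20, with an adjusted p of 0.000794. In MIA PaCa-2 it fell from 53.7, 78.7 and 54.0 FPKM to 37.9, 35.3 and 37.0 FPKM, a log2 fold change of -0.73 with an adjusted p of 0.0107. Control replicate 2 was the high library, and without it the change was -0.55 with an adjusted p of 1.72e-06. In PaTu 8988T it went from 52.1, 45.8 and 50.9 FPKM to 54.3, 60.0 and 55.3 FPKM, a log2 fold change of 0.19 with an adjusted p of 0.0265. That call was lost without control replicate 2 (adjusted p of 0.10) or shOFD1 replicate 2 (0.0617), and without a filter on low values (0.0832).

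TK1, the S-phase thymidine kinase (chr17:78174075-78187233, minus strand), was second to RRM2 in the size of its fall in PANC-1. There it went from 32.2, 26.4 and 27.6 FPKM to 10.6, 8.62 and 10.6 FPKM, which is 34.6% of the control mean. The log2 fold change was -1.52 ± 0.09 (SE), with an adjusted p of 2.05e-07. In MIA PaCa-2 the controls measured 100, 187 and 100 FPKM, so control replicate 2 was nearly as high as the others combined. The shOFD1 libraries there measured 73.6, 68.0 and 71.4 FPKM. The log2 fold change was -0.80, with an adjusted p of 0.0372, and without that library it was -0.50, with an adjusted p of 3.04e-06. Without any 1 of the shOFD1 libraries the adjusted p was 0.0957 to 0.113. The PaTu 8988T groups overlapped, with 95, 96.8 and 100.3 FPKM in the controls and 93.8, 102 and 97.2 FPKM after knockdown, a log2 fold change of 0.003 with a 95% interval of -0.09 to 0.10 and an adjusted p of 0.958.

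DCK, deoxycytidine kinase (chr4:70992538-71030914, plus strand), which also activates nucleoside analogues such as gemcitabine, was the only member called lower in PaTu 8988T. In that line it went from 15, 15.2 and 13.9 FPKM to 12.2, 10.5 and 11.4 FPKM, a log2 fold change of -0.37 ± 0.06 (SE) with an adjusted p of 0.00163. The adjusted p was at most 0.0101 whichever library of that line was left out. In PANC-1 it went from 11.3, 11.5 and 11.4 FPKM to 6.03, 6.2 and 5.73 FPKM, a log2 fold change of -0.92 with an adjusted p of 1.34e-07. The MIA PaCa-2 libraries measured 10.2, 5.08 and 9.60 FPKM in the controls and 4.88, 5.79 and 5.76 FPKM after knockdown. Control replicate 2 lay among the shOFD1 libraries, and the log2 fold change of -0.53 had an adjusted p of 0.154. Leaving that library out gave -0.84, with an adjusted p of 2.09e-05. Exons of MOB1B on the same strand cover 6.17% of the exon bases of DCK.

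SAMHD1, the dNTP hydrolase (chr20:36889773-36951901, minus strand), moved with the synthetic genes rather than against them. In PANC-1 it went from 4.99, 5.08 and 4.48 FPKM to 2.42, 2.70 and 2.50 FPKM, a log2 fold change of -0.91 ± 0.08 (SE) with an adjusted p of 4.76e-06. In MIA PaCa-2 it went from 10.1, 8.39 and 10.3 FPKM to 7.01, 7.11 and 7.56 FPKM, a log2 fold change of -0.40 with an adjusted p of 0.0279, and -0.49 without control replicate 2. Without any other MIA PaCa-2 library the adjusted p was 0.0787 to 0.111. In PaTu 8988T it rose from 10.7, 10.6 and 10.3 FPKM to 12.3, 11.9 and 12.0 FPKM, a log2 fold change of 0.19 with an adjusted p of 0.00911. Exons of TLDC2 on the opposite strand cover 10.3% of its exon bases.

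**Figure D4:**
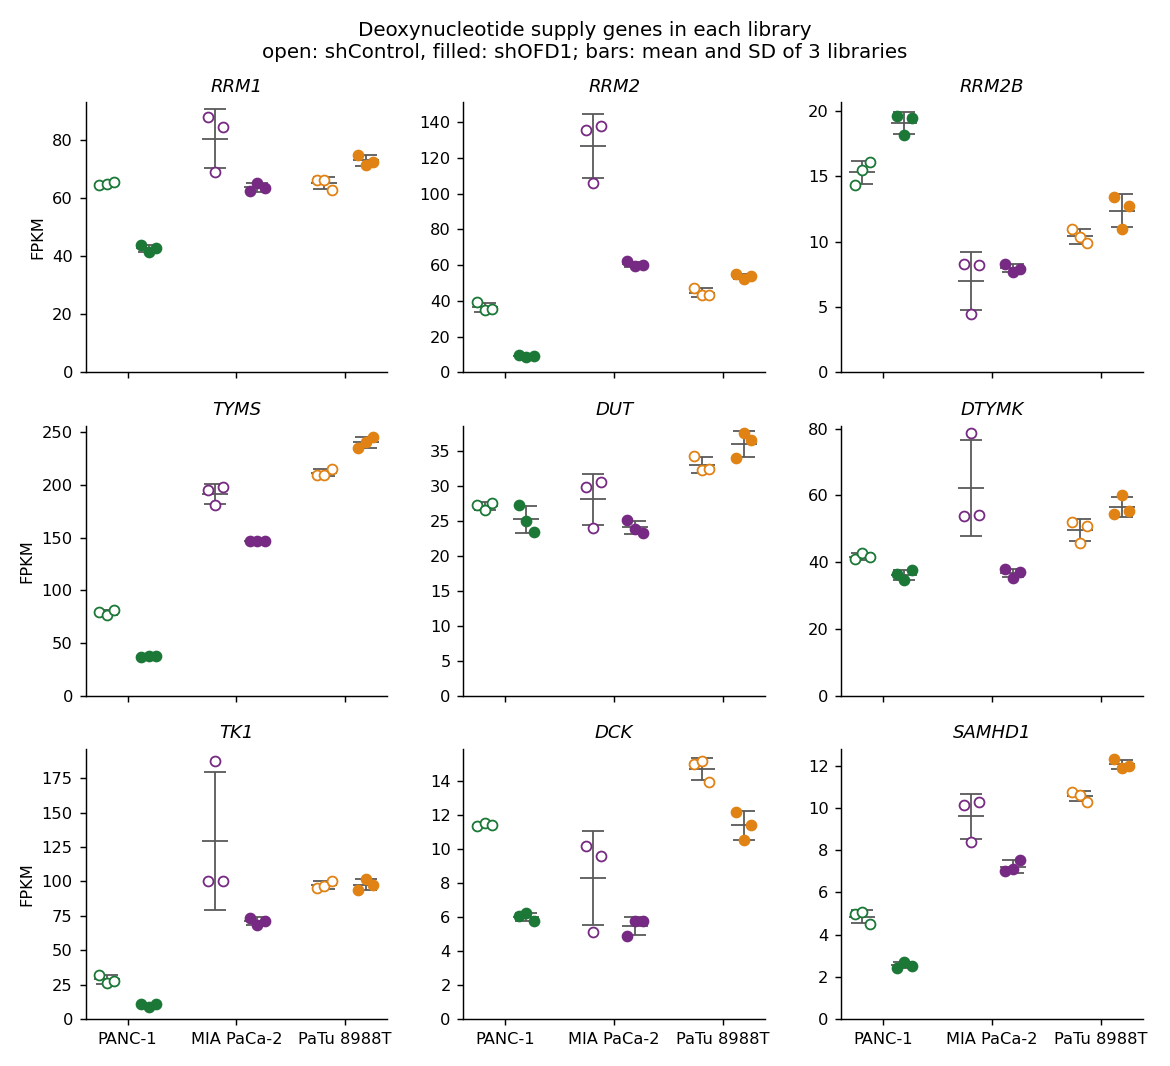
FPKM of each of the 9 genes in every library (vertical axes start at 0), by line, with open points for shControl, filled points for shOFD1, and bars for the mean and SD of 3 libraries. In PANC-1 the groups are apart for all genes but DUT, in MIA PaCa-2 control replicate 2 (middle open point) is low for DCK and RRM2B and high for TK1 and DTYMK, and in PaTu 8988T TK1 and DUT overlap and RRM2B touches its controls. Levels are to be compared within a line, since gene lengths differed between lines.

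The order of the members by level in the controls differed between the lines, with TYMS first in each. In PANC-1 the mean FPKM ran TYMS 79.1, RRM1 65.0, DTYMK 41.7, RRM2 36.5, TK1 28.7, DUT 27.2, RRM2B 15.3, DCK 11.4 and SAMHD1 4.85, and only TK1 and DUT overlapped as neighbours. The PaTu 8988T order was TYMS 211, TK1 97.4, RRM1 65.2, DTYMK 49.6, RRM2 44.6, DUT 33.0, DCK 14.7, SAMHD1 10.6 and RRM2B 10.4, with overlaps between DTYMK and RRM2 and between SAMHD1 and RRM2B. In MIA PaCa-2 it ran TYMS 191, TK1 129, RRM2 127, RRM1 80.5, DTYMK 62.1, DUT 28.2, SAMHD1 9.61, DCK 8.29 and RRM2B 6.98, and there TYMS, TK1 and RRM2 overlapped as neighbours, as did RRM1 with DTYMK and the last 3. DUT stood in sixth place in each line, and DCK, SAMHD1 and RRM2B took the lowest places. The gene lengths behind the FPKM differed between PANC-1 and the other lines, for instance 3198 bases for DUT in PANC-1 and 2314 in the others, so levels were not compared between lines.

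Whether knockdown acted differently in the 3 lines was tested as a difference of the log2 fold changes with the 18 libraries fitted together over 9083 genes. OFD1 itself was at 46.9% of its control mean in PANC-1, 63.9% in MIA PaCa-2 and 44.2% in PaTu 8988T. The part of unequal knockdown in the differences was not tested. Between PANC-1 and PaTu 8988T, 5 of the 9 genes differed (35.8% of all genes did): RRM2 by -2.24, TK1 by -1.53, TYMS by -1.26, SAMHD1 by -1.1 and RRM1 by -0.77. Because MIA PaCa-2 was the noisiest line and widens the shared spread, separate fits with each line's own spread were added after the data were seen. With these, DUT (-0.23), DTYMK (-0.39) and DCK (-0.55) differed as well, giving 8 of 9 against 58% of all genes. RRM2B was the exception in both. In the fit of the 18 libraries together it differed by 0.07, with an adjusted p of 0.841.

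Between MIA PaCa-2 and PaTu 8988T, 7 of the 9 genes differed (52.9% of all genes did), among them RRM2 by -1.33, DTYMK by -0.92, TK1 by -0.80 and DUT by -0.34. The DUT difference lost its call without MIA PaCa-2 control replicate 3 (-0.28, adjusted p of 0.0501) and when libraries were rescaled by median ratios (-0.26, 0.0621). RRM2B and DCK did not pass (adjusted p of 0.996 and 0.610), though without MIA PaCa-2 control replicate 2 both did, by -0.29 (adjusted p of 0.0132) and -0.48 (0.000279), when 70.9% of all genes differed. Between PANC-1 and MIA PaCa-2, 6 of the 9 differed (43.4% of all genes did). RRM2, TYMS, TK1, SAMHD1 and RRM1 fell further in PANC-1, by 0.92, 0.69, 0.73, 0.50 and 0.27 on the log2 scale, while DTYMK differed by 0.53, having fallen further in MIA PaCa-2. With each line's own spread RRM1 (adjusted p of 0.0851) and TK1 (0.0578) no longer passed, leaving 4 of 9 against 33.5% of all genes. The TK1 difference also lost its call without PANC-1 control replicate 1, PANC-1 shOFD1 replicate 2, or MIA PaCa-2 control replicate 1 or 3 (-0.64 to -0.57, adjusted p of 0.0565 to 0.0638). The RRM1 difference did so without PANC-1 control replicate 3 or shOFD1 replicate 2, or MIA PaCa-2 shOFD1 replicate 2 (-0.27 to -0.25, adjusted p of 0.0545 to 0.0634). Without control replicate 2 of MIA PaCa-2 all of these kept their sign, and RRM2B (0.36, adjusted p of 0.00342) and DUT (0.22, 0.0168) also differed, when 64.3% of all genes did.

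Genes expressed at G1/S, as several members are, were also mostly lower in PANC-1 and MIA PaCa-2 and not in PaTu 8988T. Of 20 genes for replication that are expressed at G1/S (MCM2 to MCM7, PCNA, CDC6 and others), 19 were lower and 1, CCNE1, was higher in PANC-1, with a median log2 fold change of -0.95. In MIA PaCa-2, 18 were lower and 0 higher, with a median of -0.84, and in PaTu 8988T 0 were lower and 12 higher, with a median of 0.15. MCM4, a helicase subunit, changed by -0.81 in PANC-1, and PCNA, the polymerase clamp, by -1.15 in MIA PaCa-2 and 0.30 in PaTu 8988T. Of 15 G2/M genes, which act in mitosis and are no part of nucleotide supply, 15 were lower in PANC-1 (median of -1.02) and 13 in MIA PaCa-2 (median of -0.71). In PaTu 8988T 1 was lower and 3 were higher, with a median of 0.03. TOP2A, a topoisomerase of dividing cells, changed by -1.27 in PANC-1 and KIF20A, a mitotic kinesin, by -1.31 in MIA PaCa-2, while CENPF, a kinetochore protein, changed by -0.28 in PaTu 8988T. Without MIA PaCa-2 control replicate 2, 18 of 20 and 15 of 15 were lower in that line, with medians of -0.71 and -0.83. With that library left out, 40% of all genes tested were lower. With all libraries, 32.2%, 21.7% and 18.5% of all genes tested were lower in the 3 lines, and 40.1%, 18.7% and 20.9% higher. The share of cycling cells was not measured, and its part in the members' changes was not tested.

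The 3 genes most like RRM2 across the 18 libraries, each value centred on the control mean of its line, were GINS1, a replication helicase subunit (r = 0.995), PTTG1, securin (0.992), and NCAPH, a condensin subunit (0.990), among 9083 genes. GINS1 went to 35.2% of its control mean in PANC-1 and 52.7% in MIA PaCa-2. Those most like RRM2B were REEP3 (r = 0.981), LARP4 (0.965) and AASDHPPT (0.954). REEP3 had log2 fold changes of 0.41 in PANC-1, 0.25 in MIA PaCa-2 and 0.28 in PaTu 8988T, but the MIA PaCa-2 value did not pass (adjusted p of 0.502). Its MIA PaCa-2 controls measured 4.74, 2.34 and 4.81 FPKM, the low one being replicate 2, and its shOFD1 libraries 4.50, 4.42 and 4.56 FPKM. LARP4 (11.2, 4.92 and 10.5 FPKM) and AASDHPPT (20.4, 12.3 and 20.8 FPKM) were low in the same control. Without that library the log2 fold change of REEP3 in MIA PaCa-2 was -0.09, and r with RRM2B was 0.964 for REEP3, 0.923 for LARP4 and 0.932 for AASDHPPT, with PALS1 (0.969) then first. GINS1 remained first for RRM2 (0.995 with all libraries and 0.994 without that one). All 18 points share their lines and conditions, and the likeness is a description.

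Among 14 known regulators of the members, 11 were lower and 1 higher in PANC-1, 10 lower and 0 higher in MIA PaCa-2, and 1 lower and 7 higher in PaTu 8988T, with median log2 fold changes of -0.48, -0.64 and 0.12. Without MIA PaCa-2 control replicate 2, 13 were lower there, with a median of -0.57, when 40% of all genes tested were lower. With all libraries, 32.2%, 21.7% and 18.5% of all genes tested were lower in the 3 lines, and 40.1%, 18.7% and 20.9% higher. The lists overlap, as E2F1 is also among the G1/S genes above, and CDK1 and CCNA2 are among the G2/M genes. E2F1, which activates RRM2, TYMS and TK1, changed by -0.82 in PANC-1, -0.85 in MIA PaCa-2 and 0.49 in PaTu 8988T, each passing the test. Its MIA PaCa-2 value was -0.60 without control replicate 2 of that line. CCNF, cyclin F, which marks RRM2 protein for destruction, was also lower in PANC-1 (-0.48) and MIA PaCa-2 (-0.99, or -0.83 without control replicate 2). Its log2 fold change of 0.05 in PaTu 8988T did not pass. CDK2, which with cyclin A phosphorylates SAMHD1, changed by -0.47, -0.44 and 0.22 in the 3 lines in the same order. FOXO3 was the 1 regulator lower in PaTu 8988T, by -0.53.

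Since RRM2B is a p53 target, 18 other genes that p53 induces were examined. Of those tested, 8 of 17 were higher and 5 lower in PANC-1, 6 of 17 higher and 2 lower in MIA PaCa-2, and 9 of 18 higher and 1 lower in PaTu 8988T, with medians of 0.14, 0.32 and 0.16. Without MIA PaCa-2 control replicate 2 the counts there were 9 higher and 5 lower. With that library left out, 35.1% of all genes tested were higher and 40% lower. With all libraries, 40.1%, 18.7% and 20.9% of all genes tested were higher in the 3 lines, and 32.2%, 21.7% and 18.5% lower. CDKN1A, the p21 inhibitor of cyclin-dependent kinases, rose in each line, by 0.65, 2.95 and 0.20. In MIA PaCa-2 it went from 1.33 ± 0.40 to 10.7 ± 0.557 FPKM (SD, n = 3). MDM2, by contrast, fell by 0.75 in PANC-1, while its values of -0.06 in MIA PaCa-2 and 0.04 in PaTu 8988T did not pass. Without control replicate 2 the MIA PaCa-2 value was -0.31, with an adjusted p of 0.00292. XPC, a DNA damage sensor, was lower in PANC-1 (-0.86) and MIA PaCa-2 (-1.12), so genes of the list moved both ways.

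SAMHD1 responds to interferon in many cells, and 13 interferon-stimulated genes were examined beside it. In PANC-1 2 of 10 tested were lower and 4 higher, in MIA PaCa-2 4 of 12 lower and 3 higher, and in PaTu 8988T 1 of 11 lower and 1 higher, with medians of 0.21, -0.15 and -0.05. Without MIA PaCa-2 control replicate 2 the median there was 0.01, with 5 lower and 4 higher. With that library left out, 40% of all genes tested were lower and 35.1% higher. With all libraries, 32.2%, 21.7% and 18.5% of all genes tested were lower in the 3 lines, and 40.1%, 18.7% and 20.9% higher. IFIT2, an interferon-induced protein, fell by 1.08 in PANC-1 and 0.74 in MIA PaCa-2.

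TYMS and ribonucleotide reductase need partners, folate for the former and reduced thioredoxin or glutaredoxin for the latter. Of 6 such genes, 3 were lower and 1 higher in PANC-1, 1 lower and 2 higher in MIA PaCa-2, and 1 lower and 1 higher in PaTu 8988T, with medians of -0.21, 0.17 and 0.08. Without MIA PaCa-2 control replicate 2, 2 of the 6 genes were lower there and 3 higher. With that library left out, 40% of all genes tested were lower and 35.1% higher. With all libraries, the shares of all genes tested were 32.2%, 21.7% and 18.5% lower and 40.1%, 18.7% and 20.9% higher. SHMT2, the mitochondrial source of one-carbon units, rose in all 3 lines, by 0.13, 0.56 and 0.20. Its MIA PaCa-2 value was 0.73 without control replicate 2. GLRX, a glutaredoxin, was lower in PaTu 8988T by 0.59 on the log2 scale.

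**Figure D5:**
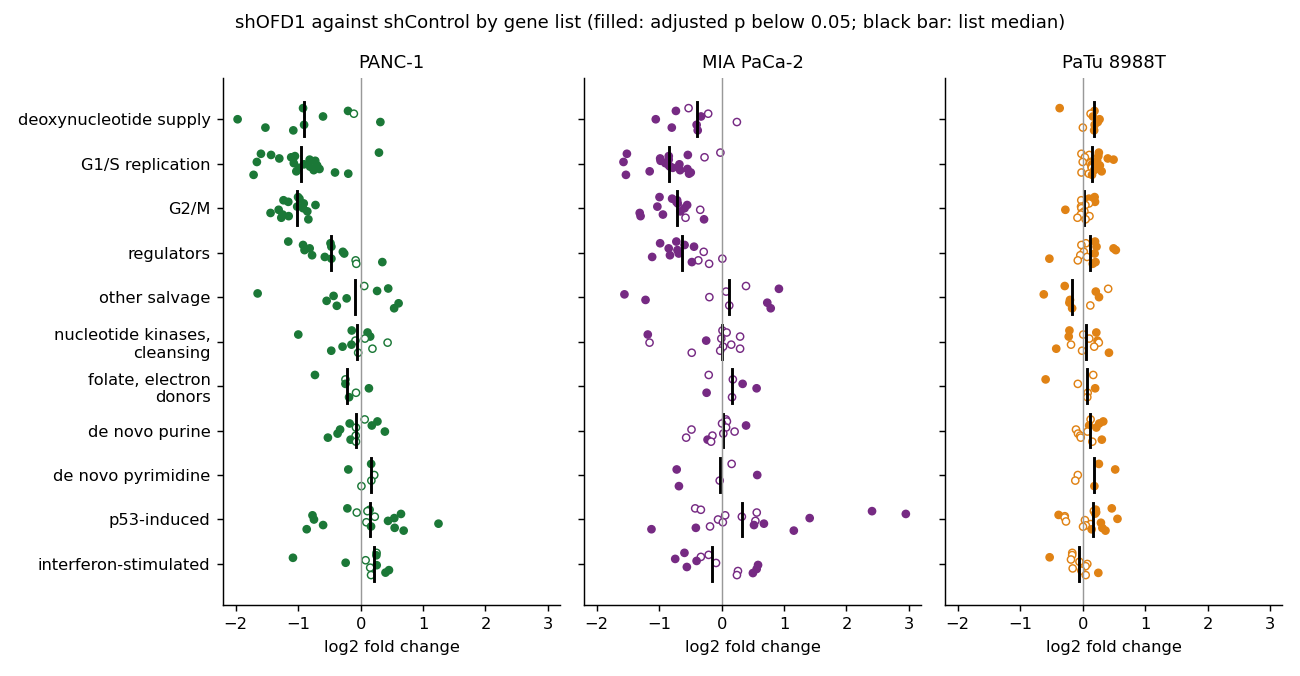
Log2 fold change of shOFD1 against shControl (horizontal axis) for every tested gene of 11 lists, by line, filled where the adjusted p was below 0.05, with a black bar at each list's median. In PANC-1 and MIA PaCa-2 the deoxynucleotide supply, G1/S, G2/M and regulator medians lie left of 0 (-0.91 and -0.40 for the supply genes), whereas in PaTu 8988T all medians lie between -0.17 and 0.19.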

How the data were processed

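The authors deposited FPKM values of 18 libraries for 26668 gene symbols; per the study's methods, reads were aligned with HISAT2 and counted with HTSeq-count. The labels list builds hg38, GRCm38 and mm10 without a role, and give an RNeasy and SMARTer preparation where the methods give TRIzol and a VAHTS kit. The authors' test was DESeq2 on counts, which are not used here. Libraries were grouped by title, and 0 columns were left unmapped.

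Within each line, log2(FPKM + 0.1) was fitted with limma 3.58.1 (R 4.3.3, lmFit and eBayes with a variance trend) over genes with a mean of at least 1 FPKM, with Benjamini-Hochberg adjustment over all of them. Fold changes are on that scale, SEs are moderated, and 95% intervals use them. Scripts were tested on simulated data. Reads were recovered from the FPKM steps only to state depth. Exons and GC content came from GENCODE release 29 (GRCh38), and promoters from RefSeq.

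The 9 members and all lists were chosen with earlier results of these data known. Named genes were the members, OFD1, a fixed set of 10 counterparts, the 2 smallest p-values per list and line, and the 3 most like RRM2 and RRM2B. Other list genes (CCNE1, XPC, SLC29A1, UPP1) were named after their values were seen. Alternatives were another pseudocount, other filters, rescaling, a replicate block, no variance trend and leaving out each library. Separate fits for differences between lines, and the lists and likeness without MIA PaCa-2 control replicate 2, were added after seeing the data. Values of 2 listed genes are not reported here.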

Additional observations from a re-analysis of the deposited data

Results flagged for a closer look

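The results here are differences of the knockdown effect between lines that passed an adjusted p below 0.05 in the limma fit of all 18 libraries, each with 3 libraries per group. Between PANC-1 and MIA PaCa-2, the log2 fold change of RRM1 differed by -0.27, that of RRM2 by -0.92, that of TYMS by -0.69, that of TK1 by -0.73 and that of SAMHD1 by -0.50, all lower in PANC-1, and that of DTYMK by 0.53. Between PANC-1 and PaTu 8988T the differences were -0.77 for RRM1, -2.24 for RRM2, -1.26 for TYMS, -1.53 for TK1 and -1.1 for SAMHD1. Between MIA PaCa-2 and PaTu 8988T they were -0.49 for RRM1, -1.33 for RRM2, -0.57 for TYMS, -0.80 for TK1, -0.34 for DUT, -0.92 for DTYMK and -0.59 for SAMHD1. Single libraries decided the calls of the RRM1 and TK1 differences between PANC-1 and MIA PaCa-2 (adjusted p of up to 0.0634 and 0.0638 without one) and of the DUT difference between MIA PaCa-2 and PaTu 8988T (0.0501).

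For RRM1, RRM2, TYMS, DTYMK and SAMHD1, all shOFD1 libraries lay below all controls in PANC-1 and MIA PaCa-2 and above all controls in PaTu 8988T. The share of all genes with this pattern was not computed.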

How the results depend on the processing

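Among the alternatives other than leaving out a library, 149 of the 161 values of single genes within a line kept their direction and their side of the threshold, 10 lost the call, 1 gained it and 1 changed sign. TK1 in PaTu 8988T turned to -0.018 when libraries were rescaled by median ratios, from a value near 0, and DUT in PANC-1 then passed (-0.16, adjusted p of 0.0207). The RRM2B differences turned to -0.028 between PANC-1 and MIA PaCa-2 with that rescaling and to -0.014 between MIA PaCa-2 and PaTu 8988T with a pseudocount of 1. With each line's own spread, 8 genes differed between PANC-1 and PaTu 8988T, and 5271 of all genes in place of 3254. With a filter at a mean of 5 FPKM, SAMHD1 was not tested in PANC-1, and 1204 genes in place of 2012 were higher in MIA PaCa-2 and 1240 in place of 1981 lower in PaTu 8988T.

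When each library was left out in turn, 135 of 162 values of single genes within a line kept their direction and their side of the threshold, 19 lost the call, 4 gained it and 4 changed sign, and of 486 differences between lines 462 kept both, 8 lost the call, 8 gained it and 8 changed sign. Leaving out each library in turn gave 3 to 8 genes lower in MIA PaCa-2, with 1317 to 4302 of all genes lower in place of 2338, and 1126 to 3780 higher in place of 2012. It gave 4 to 6 genes higher in PaTu 8988T, and 1457 of all genes without control replicate 2 in place of 2235. It gave 5 to 8 genes that differed between PANC-1 and PaTu 8988T, the 8 without MIA PaCa-2 control replicate 2, with 5363 of all genes. Values that changed sign ranged from -0.048 to 0.40 for RRM2B in MIA PaCa-2, -0.028 to 0.032 for TK1 in PaTu 8988T and -0.073 to 0.040 for the log2 ratio of RRM2B to RRM2 in PaTu 8988T. Differences that changed sign ranged from -0.080 to 0.36, -0.010 to 0.14 and -0.29 to 0.15 for RRM2B (PANC-1 against MIA PaCa-2, PANC-1 against PaTu 8988T, MIA PaCa-2 against PaTu 8988T) and from -0.48 to 0.017 for DCK between MIA PaCa-2 and PaTu 8988T. The cause of these changes was not tested.

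Replicate numbers are shared by the groups but did not pair the libraries: same-numbered libraries correlated by -0.003 to 0.080 in PANC-1, -0.11 to -0.038 in MIA PaCa-2 and -0.11 to 0.13 in PaTu 8988T. With the replicate block, RRM1 (-0.33, adjusted p of 0.0798) and SAMHD1 (-0.40, 0.0640) lost their calls in MIA PaCa-2, as did the RRM1 difference between PANC-1 and MIA PaCa-2 (-0.27, 0.0586).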

Other observations

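DGUOK, the mitochondrial deoxyguanosine kinase, was lower after knockdown in all 3 lines, including PaTu 8988T, where most supply genes were higher. It went from 43.2 ± 2.40 to 13.7 ± 1.01 FPKM in PANC-1, from 41.0 ± 3.40 to 13.9 ± 0.719 FPKM in MIA PaCa-2 and from 23.6 ± 1.11 to 15.3 ± 0.360 FPKM in PaTu 8988T (SD, n = 3), with log2 fold changes of -1.65, -1.56 and -0.62 and adjusted p-values of 5.43e-09, 0.000172 and 1.67e-05. Of the 10 other salvage and breakdown genes and nucleoside transporters to which it belongs, 5 of 10 tested were lower and 4 higher in PANC-1, 2 of 9 lower and 3 higher in MIA PaCa-2, and 5 of 9 lower and 2 higher in PaTu 8988T, with median log2 fold changes of -0.08, 0.12 and -0.17. Among all genes tested, 32.2%, 21.7% and 18.5% were lower and 40.1%, 18.7% and 20.9% higher in the 3 lines. TK2, the mitochondrial thymidine kinase, rose in PANC-1 by 0.61 on the log2 scale, and its values of 0.12 in MIA PaCa-2 and 0.12 in PaTu 8988T did not pass. CDA, which deaminates cytidine and gemcitabine, rose by 0.92 in MIA PaCa-2. SLC29A1, a nucleoside transporter that also carries gemcitabine, was lower in all 3 lines, at -0.22, -1.22 and -0.20. Its MIA PaCa-2 value was -1.07 without control replicate 2. UPP1, a uridine phosphorylase, rose in PANC-1 (0.54) and MIA PaCa-2 (0.79, or 0.99 without control replicate 2) and was lower in PaTu 8988T (-0.17).

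Of 12 nucleotide kinases, nucleotidases and enzymes that clear damaged nucleotides, 5 were lower and 2 higher in PANC-1, 2 lower and 0 higher in MIA PaCa-2, and 3 lower and 3 higher in PaTu 8988T, with medians of -0.06, 0.004 and 0.06. DCTPP1, which breaks down dCTP and its modified forms, fell by 0.998 in PANC-1 and 1.18 in MIA PaCa-2 on the log2 scale. Of 12 genes of de novo purine synthesis, 5 were lower and 3 higher in PANC-1, 1 lower and 1 higher in MIA PaCa-2, and 0 lower and 5 higher in PaTu 8988T, with medians of -0.08, 0.02 and 0.12. Of 5 genes of de novo pyrimidine synthesis, 1 was lower and 1 higher in PANC-1, 2 lower and 1 higher in MIA PaCa-2, and 0 lower and 3 higher in PaTu 8988T, with medians of 0.17, -0.03 and 0.19. CTPS1, CTP synthase, followed the supply genes in direction, at -0.20, -0.72 and 0.52 in the 3 lines, each passing the test. Without control replicate 2 the MIA PaCa-2 counts were 3 lower and 4 higher for the salvage list, 6 and 4 for the kinases, 6 and 3 for purine synthesis and 2 and 2 for pyrimidine synthesis, when 4302 of all 10758 genes were lower and 3780 higher. With all libraries, 32.2%, 21.7% and 18.5% of all genes tested were lower in the 3 lines, and 40.1%, 18.7% and 20.9% higher.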
